A study of Mus musculus with 4 samples.

Results

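The CCN proteins and the YAP pathway were followed through 10 genes. These were the CCN family genes Ccn1 (also written Cyr61), Ccn2 (Ctgf), Ccn3 (Nov), Ccn4 (Wisp1) and Ccn5 (Wisp2), the YAP and TAZ target gene Ankrd1, the coactivator genes Yap1 and Wwtr1 (which encodes TAZ), and the DNA-binding partner genes Tead1 and Tead2. Every probe set annotated to them was taken, which gave 17 of the 22626 probe sets that were not controls, and 10 of the 12393 genes named on the array. Ccn2, Ccn5, Tead1 and Tead2 were each measured by 1 probe set, Ccn1, Ccn3, Ccn4, Ankrd1 and Yap1 by 2, and Wwtr1 by 3. All 17 lay above the brightness filter, which left out probe sets whose mean over the 4 arrays was under the 40th percentile.

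The cells were mouse embryonic fibroblasts, cultured connective tissue cells, of C57BL/6J background and taken at embryonic day 10. The Med1+/+ p53-/- and Med1-/- p53-/- cells came, per the labels, from 1 cross of a Med1+/- p53-/- male with a Med1+/- p53+/- female, so both groups lacked p53, and Med1 was the labelled difference. They were grown in medium with 10% fetal calf serum, and 2 arrays were hybridised per genotype. Nothing in the labels says that both arrays of one genotype hold RNA of separate cultures or embryos, so the p-values reflect no more than how these samples varied, and that variation may be technical. Whatever else set the embryos or cultures of the 2 genotypes apart cannot be told apart from Med1 loss.

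Setting Med1-/- beside Med1+/+ cells addresses which genes differ when Med1 is missing, a part of the Mediator complex through which transcription factors act on RNA polymerase II. The Med1 probe sets were read first. On the brightest, the normalized intensity was 630.5 and 590.8 in Med1+/+ cells against 47.1 and 52.96 in Med1-/-, in the direction of the labels. The deposited arrays differed in overall brightness (median intensity 36.1 to 107) and were quantile normalized. Precision is limited throughout by having 2 arrays a genotype. Of 8923 genes and unnamed probe sets tested, 75.3% passed an adjusted p of 0.05, 39.1% higher and 36.2% lower in Med1-/- cells, and the median log2 change was 0.09. Against that background a call in itself does not set a gene apart, and the sizes and directions are what is described. In bulk RNA, fewer cells of a type and less RNA per cell cannot be told apart.

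CCN proteins are secreted, cysteine-rich proteins of the extracellular matrix that bind integrins and proteoglycans and act on adhesion, growth factor signalling and matrix production. Ccn5 differs from the others in lacking the C-terminal cysteine-knot domain. In the Hippo pathway the MST kinases (Stk3, Stk4) activate the LATS kinases. These phosphorylate YAP and TAZ, which keeps both coactivators in the cytoplasm. When the kinases are less active, as in spread cells on a stiff substrate, YAP and TAZ enter the nucleus and bind TEAD proteins, and Ccn1, Ccn2 and Ankrd1 are widely used readouts of this. In fibroblasts, Ccn1 and Ccn2 are also targets of TGF-beta and of serum response factor.

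TEAD proteins recognise the core GGAATG, which reads CATTCC on the other strand. RefSeq promoter windows (GRCm38.p6, 250 bases before to 50 bases after the gene start) were matched by symbol for 5 of the 10 genes, namely Ccn1, Ankrd1, Yap1, Wwtr1 and Tead2. The 250 bases upstream of Ccn1 (chr3:145649986-145650235, minus strand) and Ankrd1 (chr19:36119845-36120094, minus strand) are shown because both are standard YAP readouts that hold the core and yet moved in opposite directions here. For Yap1 (chr9:8004712-8004757, minus strand) and Wwtr1 (chr3:57576021-57576066, minus strand) the core with 20 bases on each side is shown. Sequences run 5′ to 3′ on the strand of the gene, and capitals mark the core.
Ccn1: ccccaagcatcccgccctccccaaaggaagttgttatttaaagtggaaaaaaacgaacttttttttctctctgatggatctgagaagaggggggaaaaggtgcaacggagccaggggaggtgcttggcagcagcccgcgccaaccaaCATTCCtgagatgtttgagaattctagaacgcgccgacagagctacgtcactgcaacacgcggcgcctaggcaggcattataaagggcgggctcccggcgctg
Ankrd1: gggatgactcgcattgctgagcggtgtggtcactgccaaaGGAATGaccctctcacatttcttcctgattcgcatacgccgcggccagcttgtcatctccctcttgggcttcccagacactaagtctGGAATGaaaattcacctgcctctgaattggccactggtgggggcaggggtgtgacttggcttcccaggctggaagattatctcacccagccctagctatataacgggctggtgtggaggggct
Yap1: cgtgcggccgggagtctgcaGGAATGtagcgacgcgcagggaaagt
Wwtr1: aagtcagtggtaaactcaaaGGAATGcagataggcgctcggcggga

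Ankrd1 held the core 2 times, starting at positions -210 and -123 from the gene start, and Ccn1 held it once, at -103 and on the other strand. The Yap1 window held 1 match at -141. The 2 overlapping Wwtr1 windows shared 1 match, and the Tead2 window held none. By comparison, a core on either strand was found in 16.6% of the 27025 genes with a window and in 14.4% of tested ones. The share was 15.8% of tested genes called higher in Med1-/- cells, 12.9% of those called lower and 14.4% of those not called. The core was found in 6 of the 16 YAP and TAZ target genes with a window (37.5%) and in 9 of 27 Hippo pathway genes (33.3%). These 2 lists share Ajuba, Ptpn14, Amotl2 and Lats2. Of the other TEAD and VGLL genes with a window, 3 of 4 held it. A match describes these letters only and is not a measured binding site.

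The 5 CCN genes split by direction. In Med1-/- cells Ccn1 and Ccn2 were 2.27-fold and 2.65-fold higher, Ccn3 and Ccn5 were 7.72-fold and 2.99-fold lower, and Ccn4 was 1.30-fold higher. Ccn1 and Ccn4 turned negative under scaling on the Bacillus subtilis controls (log2 changes of -0.21 and -1.24), whereas Ccn3 and Ccn5 were lower under all 6 scalings tried. Among all 10 genes, 5 were called higher (Ccn1, Ccn2, Ccn4, Tead1 and Tead2) and 4 lower (Ccn3, Ccn5, Ankrd1 and Wwtr1), with Yap1 not called. These 9 calls of 10 stand beside the 75.3% called among all features, and the 9 genes of 10 whose genotypes did not overlap beside 88.2%. Over probe sets, 9 of 17 were higher and 6 lower, against 36.3% and 35.3% of all 13576 probe sets tested (71.6% in either direction), and in 16 of 17 the 2 genotypes did not overlap, against 86.6%.

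Ccn2, a matrix protein induced in fibrosis and wound repair, had the largest rise of the 10 genes by their brightest probe sets. Its normalized intensity was 3276 and 2892 in Med1+/+ cells against 8237 and 8090 in Med1-/-. Both Med1-/- arrays were above both Med1+/+ arrays by far more than the replicates differed. The log2 mean went from 11.59 ± 0.13 to 12.995 ± 0.018 (SD, n = 2), a log2 change of 1.41 (SE 0.098; adjusted p = 4.84e-05, limma with Benjamini-Hochberg adjustment), or 2.65-fold. The intensities as deposited also ran higher, at 3257.4 and 3976.8 against 6242.6 and 8016.5. Scaled on the Bacillus subtilis controls, the change was 0.10 and was not called (adjusted p = 0.531, limma).

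Ccn1, an angiogenic and adhesive member induced by serum, rose alongside it on both of its probe sets. On 1438133_a_at the normalized intensity was 1532 and 1407 in Med1+/+ cells against 3509 and 3244 in Med1-/-, a log2 change of 1.199 (SE 0.10). On the brighter 1416039_x_at it was 2159 and 2312 against 4019 and 6406, a log2 change of 1.18 (SE 0.20; adjusted p = 0.00172, limma). The 2 Med1-/- arrays thus lay apart on this probe set, whose identifier marks probes that can match other transcripts, while the size of the change was alike on both within their SE. In the values as deposited the change was 0.66 and did not pass (adjusted p = 0.144, limma).

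Ccn3, a family member known to oppose Ccn2 in models of fibrosis, had the largest change of the 10 genes. On 1426852_x_at the normalized intensity was 454.6 and 486.7 in Med1+/+ cells against 60.025 and 58.6 in Med1-/-. The identifier of this probe set also marks probes that can match other transcripts. The other Ccn3 probe set, 1426851_a_at, gave 319.4 and 414.5 against 41.5 and 60.2. On both probe sets the genotypes were far apart, and the replicates of each lay close together beside that gap. The log2 changes were -2.95 (SE 0.13; adjusted p = 3.12e-05, limma) and -2.82 (SE 0.23).

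Ccn5, the member without the C-terminal domain, was also lower. Its intensity was 126.6 and 102.1 in Med1+/+ cells against 41.5 and 32.7 in Med1-/-, a log2 change of -1.58 (SE 0.23; adjusted p = 0.000787, limma). Its probe set was the dimmest of the 17, at the 49.2 percentile of mean brightness, but both Med1-/- values were well under both Med1+/+ values.

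Ccn4, a target of Wnt signalling, had the smallest change among the CCN genes after quantile normalization. It was below 0 in the values as deposited (-0.37) and when arrays were scaled on hybridisation (-0.39) or Bacillus subtilis controls (-1.24). On 1448594_at the intensity was 868.1 and 1024.1 in Med1+/+ cells against 1142.3 and 1310.9 in Med1-/-, a log2 change of 0.38 (SE 0.13; adjusted p = 0.032, limma). Without Med1+/+ replicate 1 it was 0.27 (adjusted p = 0.175, limma) and without Med1-/- replicate 2 also 0.27 (adjusted p = 0.14), so its call rested on those arrays. The other probe set, 1448593_at, gave 0.25 (SE 0.10; adjusted p = 0.0588, limma over all probe sets) and did not pass.

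**Figure D1:**
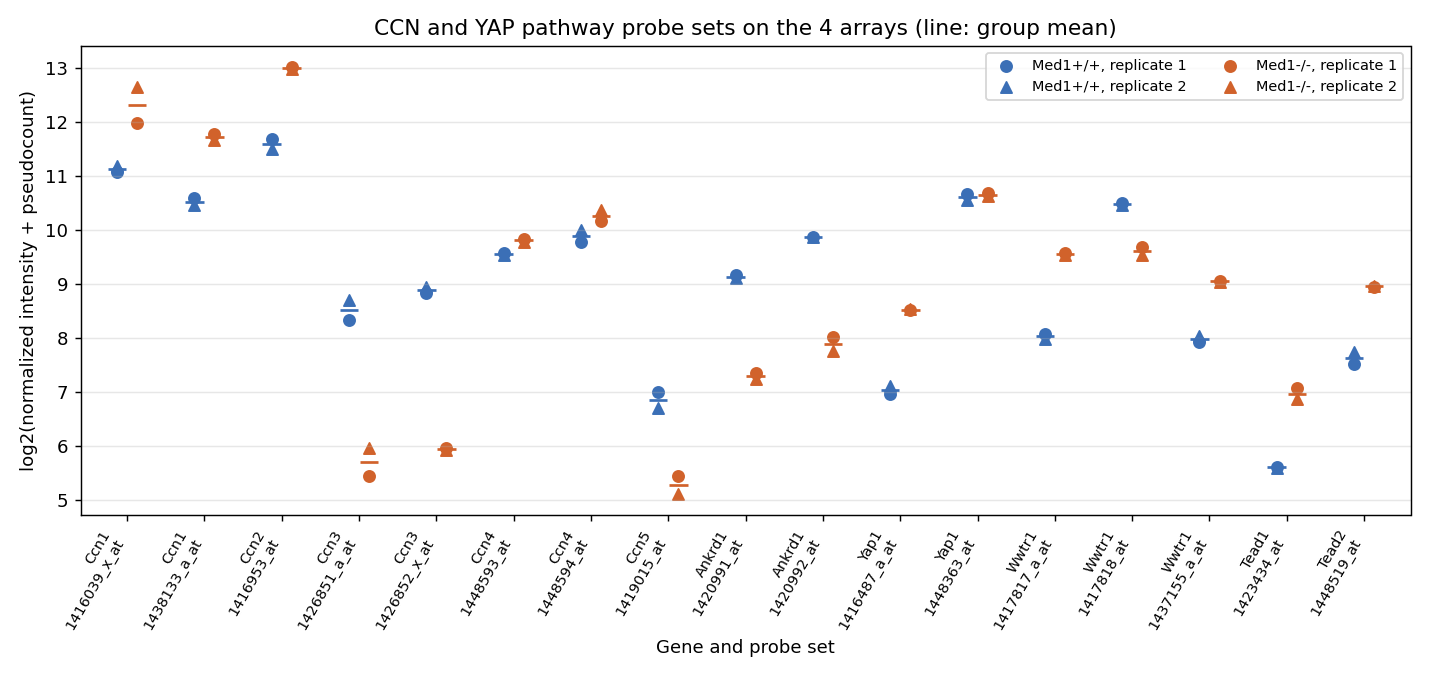
Each point is 1 array's log2(normalized intensity + pseudocount) for the 17 probe sets of the 10 genes, blue for Med1+/+ and orange for Med1-/-, circles for replicate 1 and triangles for replicate 2, with short lines at the group means (n = 2). The genotypes overlap only on the Yap1 probe set 1448363_at, and the Wwtr1 probe set 1417818_at is lower in Med1-/- cells where the other 2 Wwtr1 probe sets are higher.

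Ankrd1, which encodes a stress-responsive ankyrin repeat protein of muscle and wounded fibroblasts, fell, unlike the other YAP readouts Ccn1 and Ccn2. On 1420992_at the intensity was 930.7 and 931.7 in Med1+/+ cells against 255.2 and 214.3 in Med1-/-, and on 1420991_at it was 568.8 and 550.8 against 160.6 and 149.6. Both probe sets separated the genotypes in the same direction. The log2 changes were -1.99 (SE 0.13; adjusted p = 4.18e-05, limma) and -1.84 (SE 0.12), a fall of about 3.96-fold on the brighter one.

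A ratio of 2 probe sets within an array is not altered by multiplying the whole array by a factor, although quantile normalization does alter it. The level of such a ratio has no meaning, only its change. The ratio of Ccn2 to Ankrd1 deposited intensity was 3.36 and 2.88 in Med1+/+ cells against 43.4 and 46.7 in Med1-/-, a 14.5-fold shift, or 10.5-fold after quantile normalization. For Ccn1 (1438133_a_at) over Ankrd1 the shift was 11.3-fold, from 1.61 and 1.49 to 16.3 and 18.6, or 9.09-fold after quantile normalization. Within the CCN family, Ccn2 over Ccn3 shifted 31.1-fold in the deposited intensities and 20.5-fold after quantile normalization. Ccn2 over Ccn5 shifted 12.4-fold and 7.91-fold, respectively. These pairs were chosen after their values were seen and carry no test.

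The probe sets of the coactivator genes did not move together. Wwtr1, which encodes TAZ, had 1 probe set lower and 2 higher in Med1-/- cells. Its brightest probe set, 1417818_at, had a deposited intensity of 1466.2 and 2045.8 in Med1+/+ cells against 490.2 and 636.5 in Med1-/-, while 1417817_a_at had 292.9 and 383.0 against 451.2 and 642.9. The opposite directions were therefore already present in the values as deposited. After normalization the log2 change was -0.87 on 1417818_at (SE 0.11; adjusted p = 0.000346, limma), 1.53 on 1417817_a_at (SE 0.11) and 1.07 on 1437155_a_at (SE 0.12). These higher probe sets had adjusted p of 0.000105 and 0.000331 (limma over all probe sets). Neither rise passed in the values as deposited (0.68 and 0.21), and under scaling on the Bacillus subtilis controls both were below 0 (-0.19 and -0.66), still above the -2.4995 of 1417818_at.

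Within each array, the ratio of 1417817_a_at to 1417818_at was 0.200 and 0.187 in Med1+/+ cells against 0.920 and 1.01 in Med1-/-, a 4.99-fold shift in the deposited intensities and 5.27-fold after quantile normalization. The shift was 3.58-fold for 1437155_a_at over 1417818_at, or 3.84-fold after quantile normalization. Such a disagreement was uncommon after quantile normalization. Of 3052 genes with at least 2 tested probe sets, 96 (3.15%) had 1 called higher and another called lower. With 3 probe sets, Wwtr1 had more occasions for this than a gene with 2. The direction of Wwtr1 as a gene is not settled by these probe sets: the mean of its 3 probe sets changed by 0.58 (adjusted p = 0.00133, limma), against -0.87 on the brightest. The suffix _a_at marks probe sets designed to match several transcript variants of a gene. Which part of the Wwtr1 transcripts each one reads was not given in the sources used here.

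Yap1 showed a milder form of the same split after quantile normalization. On the hybridisation controls its 2 probe sets were called in opposite directions by limma over all probe sets. The changes there were 0.57 on 1416487_a_at (adjusted p = 0.00994, limma) and -0.66 on 1448363_at (adjusted p = 0.0009). In the fit over genes with that scaling, 1177 features were called higher and 5342 lower. On the brighter 1448363_at the normalized intensity was 1610 and 1500 in Med1+/+ cells against 1644 and 1567 in Med1-/-. These groups overlapped, with a log2 change of 0.05 (SE 0.098; adjusted p = 0.679, limma). On 1416487_a_at the intensity rose from 122.9 and 135.5 to 363.8 and 367.4, a log2 change of 1.49 (SE 0.13; adjusted p = 0.000163, limma over all probe sets), which was 0.58 and did not pass in the values as deposited. The within-array ratio of 1416487_a_at to 1448363_at went from 0.0832 and 0.0972 to 0.205 and 0.217, a 2.35-fold shift, or 2.72-fold after quantile normalization. After quantile normalization, 35.4% of the 3052 genes with several tested probe sets had some called and others not. Shares of split genes on the hybridisation controls are not given here.

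The 3′ to 5′ intensity ratios of the array's quality controls, a measure of RNA integrity and of labelling, were compared as well. For beta-actin the ratio was 1.52 and 1.38 in Med1+/+ cells against 1.28 and 1.22 in Med1-/-, and for Gapdh 0.947 and 0.900 against 1.11 and 1.0047. For the Bacillus subtilis dap control it was 12.4 and 12.5 against 10.8 and 11.2. The actin and dap ratios were thus lower and the Gapdh ratio higher in Med1-/- cells. Their part in the split of the Wwtr1 and Yap1 probe sets was not tested.

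**Figure D2:**
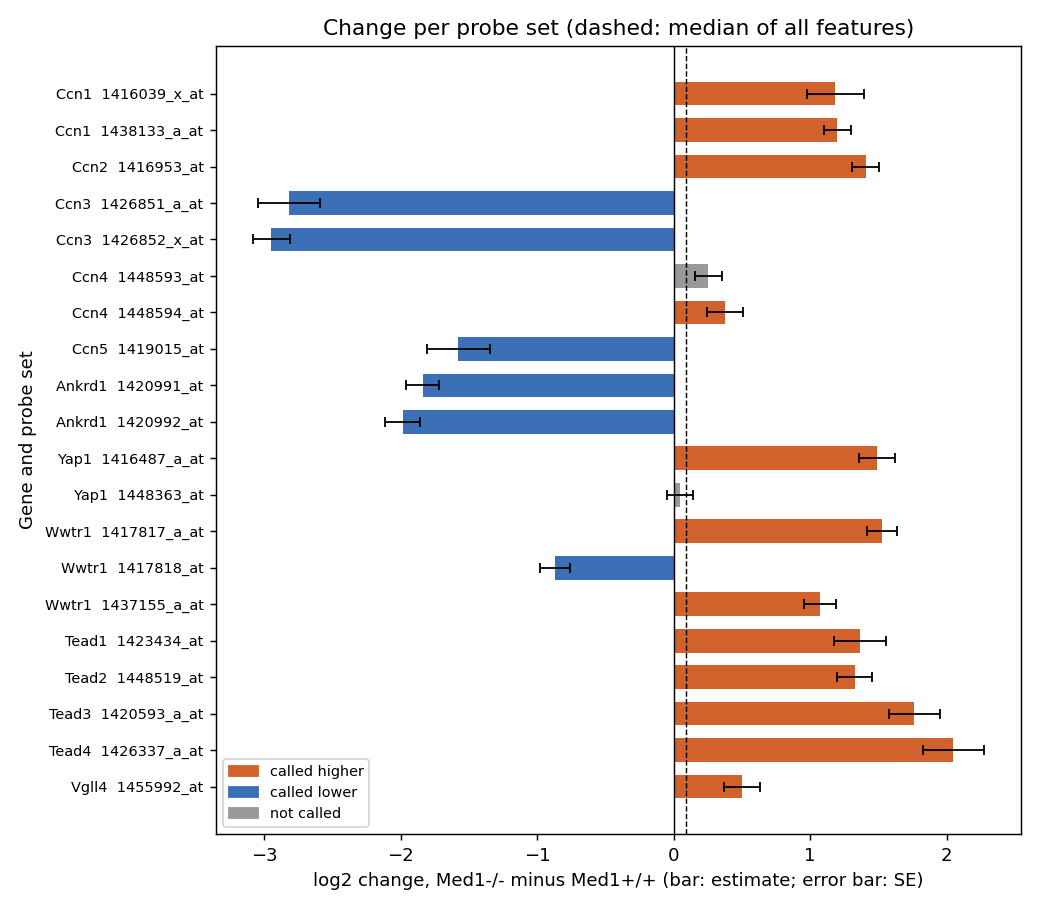
Bars show the log2 change (Med1-/- minus Med1+/+) and error bars its SE from the fit over all 13576 probe sets, for the 17 probe sets of the 10 genes and for those of Tead3, Tead4 and Vgll4 above the filter. Ccn3, Ccn5, Ankrd1 and 1 Wwtr1 probe set extend to the left, from -2.95 to -0.87, and the Tead bars reach 1.32 to 2.05 to the right; the dashed line is the median of all features, 0.09 in the fit over genes.

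The TEAD genes, which encode the DNA-binding partners of YAP and TAZ, were all higher in Med1-/- cells after quantile normalization. Under scaling on the Bacillus subtilis controls Tead1, Tead2 and Tead3 turned negative (-0.49, -0.43 and -0.067), and Tead2 was called lower (adjusted p = 0.0184, limma). All 4 lost their calls in the values as deposited (0.36, 0.44, 0.79 and 1.07 for Tead1 to Tead4). On the hybridisation controls limma called Tead2 (0.43), Tead3 (0.78) and Tead4 (1.06) higher, but not Tead1 (0.34). Tead1 had an intensity of 46.8 and 46.6 in Med1+/+ cells against 132.5 and 114.5 in Med1-/-, a log2 change of 1.37 (SE 0.19; adjusted p = 0.000617, limma). Tead2, prominent in embryonic tissue, went from 181.7 and 210.3 to 490.2 and 494.9, a change of 1.32 (SE 0.13; adjusted p = 0.000123, limma). In neither did the genotypes overlap, and the 2 changes were alike within their SE.

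The paralogs Tead3 and Tead4 were measured as well. Tead3 went from 72.5 and 65.4 to 274.9 and 206.4, a log2 change of 1.76 (SE 0.19; adjusted p = 0.000185, limma). Tead4 went from 26.0 and 28 to 106.9 and 129.0, a change of 2.05 (SE 0.23; adjusted p = 0.00022, limma), and its second probe set was below the filter. Vgll4, which encodes a repressor that competes with YAP for TEAD, had a change of 0.50 (SE 0.13; adjusted p = 0.0103, limma), but -0.46 in the values as deposited. So 4 of 4 TEAD genes were called higher, against 39.1% of all features, and relative to the median of all features each was higher under all 6 scalings, by at least 1.10 on the log2 scale (Tead1). Tead4 and Tead1 were among the dimmer probe sets, at the 47.5 and 51.4 percentile of mean brightness.

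The scaling between arrays bears on the size of every log2 change above and on several of the signs, since the deposited arrays differed in overall brightness. The median log2 change of all features, 0.09 after quantile normalization, became 0.30 when arrays were brought to equal medians, 0.11 when brought to equal 75th percentiles, and -0.76 in the values as deposited. Scaling on the hybridisation controls gave -0.77, and scaling on Bacillus subtilis controls gave -1.62. Relative to that median, Ccn2 was higher by 1.32 to 1.74 under the 6 scalings, Ccn1 by 1.09 to 1.43, Tead1 by 1.10 to 1.28 and Tead2 by 1.19 to 1.23. The differences from the median ran from -3.17 to -3.04 for Ccn3, from -2.11 to -2.07 for Ankrd1, from -1.84 to -1.67 for Ccn5 and from -0.96 to -0.86 for Wwtr1 on its brightest probe set. Ccn4 lay 0.29 to 0.40 above the median, and Yap1 between -0.04 and 0.12.

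**Figure D3:**
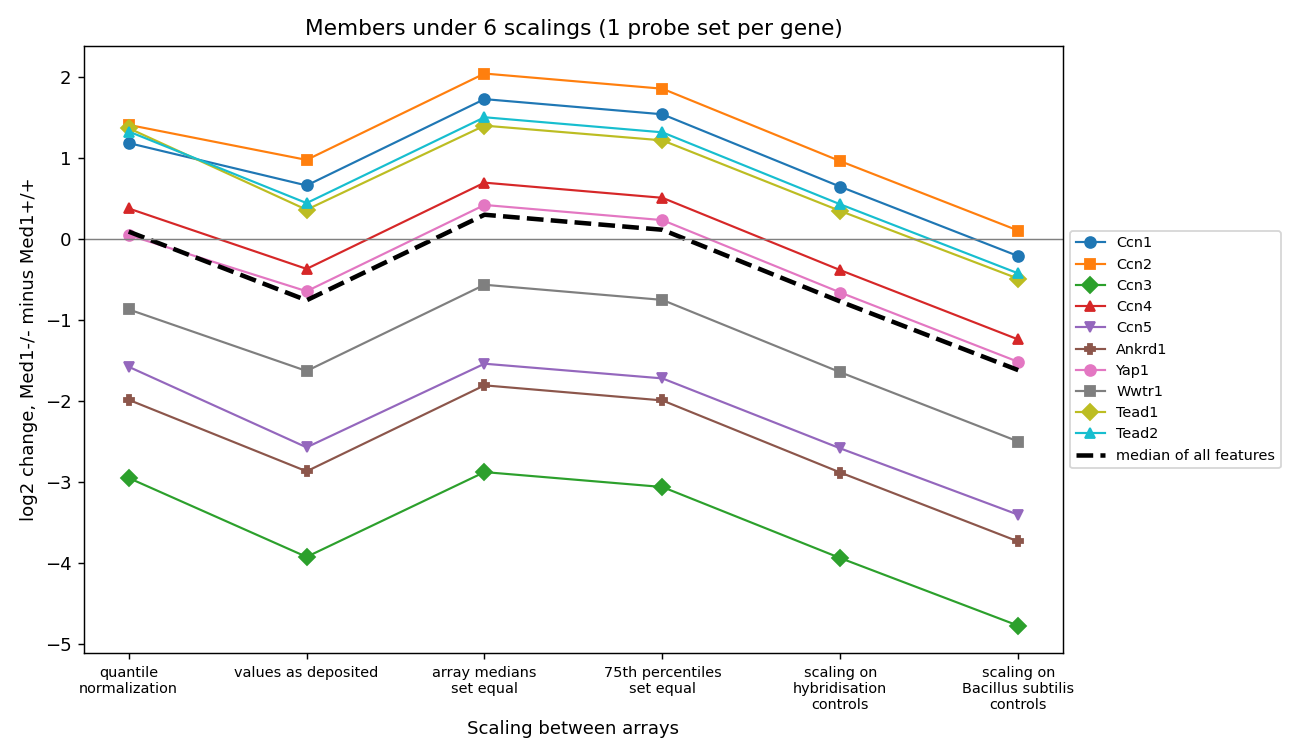
Lines join the log2 change of each of the 10 genes (1 probe set per gene) under 6 ways of scaling the arrays, and the dashed black line is the median of all features. The genes keep their place above or below the dashed line, apart from Yap1, which lies on it, but all of them shift with it, so that Ccn1, Ccn4, Yap1, Tead1 and Tead2 fall below 0 under scaling on the Bacillus subtilis controls.

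Other YAP and TAZ target genes moved both ways after quantile normalization. Of 23 listed, 20 were on the array and 18 were tested, of which 8 were called higher (39.1% of all features were) and 6 lower (36.2%). Their median log2 change was 0.16, against 0.09 for all features. The growth regulator gene Fjx1 (1.51), Ajuba (1.47), which encodes a LIM protein that restrains LATS kinases, and Ptpn14 (1.33), which encodes a phosphatase that binds YAP, rose most. Igfbp3 (-1.76), an insulin-like growth factor binding protein gene, F3 (-1.75), the tissue factor gene, and Myof (-1.58), a membrane repair gene, fell most. In the values as deposited, where the median of all features was -0.76, Fjx1 (0.51), Ajuba (0.82) and Ptpn14 (0.36) did not pass. There 0 of the 18 were called higher and 7 lower by limma (0 and 9 at an unadjusted p under 0.05), and on the hybridisation controls 2 higher and 9 lower. Among all features, 265 were called higher and 3844 lower as deposited, and 1177 higher and 5342 lower on the hybridisation controls.

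Genes of the Hippo kinase cascade and its regulators were split as well after quantile normalization, near the shares of all features. Of 25 tested among 34 listed, 8 were called higher (39.1% of all features were) and 9 lower (36.2%), with a median of -0.004. The split depended on the scaling. In the values as deposited limma called 0 higher and 10 lower (0 and 11 at an unadjusted p under 0.05). On the hybridisation controls it called 2 higher and 16 lower. Among all features, 265 were higher and 3844 lower as deposited, and 1177 higher and 5342 lower on the hybridisation controls. Ajuba, Ptpn14 and the casein kinase gene Csnk1e (1.23) were the largest rises; Ajuba, Ptpn14, Amotl2 and Lats2 stand in both lists. The largest falls were those of Taok1 (-1.87), a kinase gene upstream of the MST kinases, Mob1a (-1.78), the gene of a LATS activator, and Slmap (-1.75), a gene of the phosphatase complex that opposes the MST kinases. Mob1a went from 1477 and 1464 to 438.7 and 412.9. Among the core kinases, Stk4 (-0.14; adjusted p = 0.575, limma) and Lats2 (0.44; adjusted p = 0.0567) did not pass, Lats1 was below the filter, and Stk3 was not analysed here. Sav1, Wwc2, Map4k4 and Dock5 had probe sets called in both directions, so their directions are uncertain.

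The receptors of CCN proteins changed in both directions too, with a median of -0.81. Of 9 tested genes 3 were called higher (39.1% of all features were) and 5 lower (36.2%). As deposited, 1 was called higher and 5 lower, beside 265 and 3844 of all features, and Itgb5 (0.35) and Sdc4 (0.16) did not pass. The integrin subunit genes Itga6 (-2.45), Itgb1 (-1.17) and Itgav (-1.12) fell, and Itga5 (2.48), Itgb5 (1.10) and the heparan sulphate proteoglycan gene Sdc4 (0.73) rose. Itga6, a subunit of a laminin receptor that also binds CCN proteins, went from 577.3 and 582.8 to 101.0 and 109.1. Itga5, the fibronectin receptor subunit, went from 52.3 and 36.8 to 278.9 and 229.5. Its probe set has a suffix (_s_at or _x_at) of probes that can match other transcripts. The same holds for the probe sets used for Myof, Srf, Tgfbi, Lats2, Wwc2, Map4k4, Acta2 and Egfl7.

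Among other routes to Ccn1 and Ccn2, 11 of 12 serum response factor and MRTF target genes were called higher (all features: 39.1%). Their median was 1.08 after quantile normalization and -0.23 under scaling on the Bacillus subtilis controls. Relative to all features that median was above by 0.99 to 1.41 under the 6 scalings. The focal adhesion gene Zyx (1.83), the focal adhesion adaptor gene Tgfb1i1 (1.66) and Srf itself (1.61) rose most, and Vcl (0.02; adjusted p = 0.833, limma) did not pass. In the values as deposited 1 of the 12 was called higher, and on the hybridisation controls 9 were higher and 1 lower. Among all features, 265 were called higher and 3844 lower as deposited, and 1177 higher and 5342 lower on the hybridisation controls. TGF-beta induced matrix and feedback genes had 5 higher and 3 lower of 11 (all features: 39.1% and 36.2%). Col1a1 (1.98), Tgfb1 (1.36) and Smad7 (1.196) were higher, and the receptor gene Tgfbr1 (-1.25), Tgfbi (-1.23) and Skil (-0.60) lower. The counts of this list became 1 higher and 4 lower as deposited, and 1 higher and 5 lower on the hybridisation controls. Tgfb1 and Smad7 were called under neither. The Skil call was lost without Med1+/+ replicate 1 (adjusted p = 0.0649, limma) and without Med1-/- replicate 2 (adjusted p = 0.0555).

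**Figure D4:**
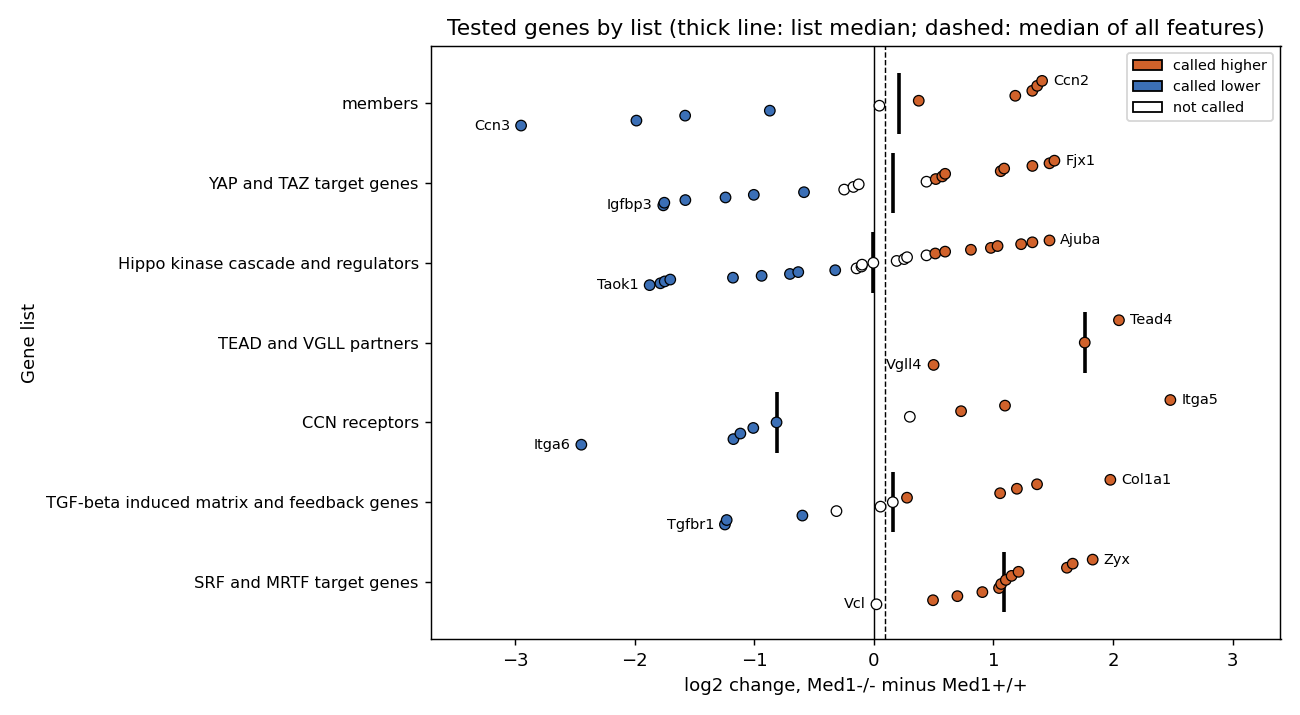
Each point is the log2 change of 1 tested gene, by list, filled orange where called higher, blue where called lower and white where not called; thick lines are list medians and the dashed line the median of all features (0.09). The target, Hippo, receptor and TGF-beta lists spread to both sides, whereas 11 of 12 serum response factor targets and 3 of 3 TEAD and VGLL genes lie to the right after quantile normalization; those 2 list medians were -0.23 and -0.067 when arrays were scaled on the Bacillus subtilis controls.

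Markers of other cell types moved beside these genes after quantile normalization, where 39.1% of all features were called higher and 36.2% lower. Of 8 smooth muscle markers 6 were tested and all 6 were called higher, with Actg2 (5.39) and Cnn1 (4.09) the largest, while the smooth muscle myosin and myocardin genes Myh11 and Myocd were below the filter. Acta2 and Tagln stand in this list and in that of the serum response factor targets. The summed normalized intensity of the 8 was 13763 to 14162 in Med1+/+ and 29891 to 31678 in Med1-/- cells. Striated muscle markers had 4 higher of 5 tested among 14, with Acta1 (4.34) and Nppb (2.39) the largest. Their summed intensity was 397.6 to 404.0 against 2298 to 2405, and the muscle regulators Myod1 and Myog were below the filter. Of 13 fibroblast and mesenchyme markers 5 were higher and 4 lower of 12 tested, Col1a1 (1.98) and Thy1 (1.34) rising and Pdgfra (-2.95) and Prrx1 (-2.89) falling, and their summed intensity was 70348 to 72778 against 75887 to 79941. Of 10 epithelial markers 6 were tested, with a median of -4.15. Krt19 (1.61) was higher and 5 were lower, Cdh1 (-4.49) and Krt18 (-4.45) the most. The sums were 5972 to 6195 against 2434 to 2806. Krt19 alone made 741 and 725 of these in Med1+/+ cells and 2041 and 2460 in Med1-/-. Of 8 endothelial markers 2 were tested and 1 was higher (Egfl7, 1.86), with Pecam1 and Cdh5 below the filter and sums of 172.2 to 191.6 against 500.8 to 517.6. Of 8 blood cell markers 2 were tested and 1 was higher (Cd14, 0.55; not called without Med1+/+ replicate 2, at 0.46, without Med1-/- replicate 1, at 0.45, or at equal 75th percentiles, at 0.41), with Ptprc below the filter and sums of 264.4 to 300.3 against 323.8 to 371.8. Of 7 neural markers on the array both tested ones were higher (Nes, 2.07, and Tubb3, 1.84), with Sox10 below the filter and sums of 378.2 to 417.1 against 1268 to 1274. In the values as deposited, 265 of all features were called higher and 3844 lower. There 4 of 6 smooth muscle, 2 of 4 striated muscle, 1 of 2 neural and 1 of 12 fibroblast markers were called higher. Lower calls went to 5 fibroblast and 5 epithelial markers, and endothelial and blood cell markers had 0 calls. Thy1 (0.75), Krt19 (0.93), Egfl7 (0.87), Tubb3 (0.96) and Cd14 (-0.45) did not pass. The part of these marker shifts in the CCN and TEAD changes was not tested.

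For each end of the range, the genes whose 4 centred log2 values lay nearest were listed as a description. Nearest to Ccn2 were Uck2 (Euclidean distance 0.015 log2 units over 4 arrays), Mettl22 (0.032) and Cdc20 (0.045). Nearest to Ccn3 were the mesenchymal homeobox gene Prrx1 (0.11), Eps8 (0.13) and Etl4 (0.14). With 4 arrays in 2 groups this measure reflects little more than a change of the same size.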

How the data were processed

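Per the labels' protocols, 50 ng of total RNA was amplified and biotin-labelled using the 3′ IVT Express Kit. The deposited values are intensity on a linear scale, 1 for each probe set on each array. How the authors summarised probes, corrected background or scaled arrays was not given in the sources used here. Samples were grouped by the genotype in their titles, and their replicate numbers came from there too.

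From these intensities, 64 control probe sets were removed and the other 22626 were quantile normalized and put on a log2(value + 1.85) scale, with the normalized table's 10th percentile as pseudocount, which understates fold changes of dim genes. The filter dropped 9050 probe sets, those with means below the 40th percentile. Gene symbols of the platform annotation were brought up to date by Entrez identifier with RefSeq's GRCm38.p6 table: 20380 probe sets had 1 symbol, 691 several and 1555 none. For the fit over genes, the brightest probe set stood for a gene, and probe sets without a single symbol were tested under their own identifier. The genotypes were tested with limma 3.58.1 (R 4.3.3; lmFit, then eBayes with an intensity trend, two-sided, all 4 arrays), and "called" means a p of at most 0.05 after Benjamini-Hochberg adjustment across the 8923 features. A second fit over all 13576 probe sets past the filter gave the values of the other probe sets. The fit over genes had 2 residual and 4.71 prior degrees of freedom. The procedure was also run on simulated data with few probe sets changed, in equal numbers up and down, and no brightness difference between arrays. That run cannot check the scaling on which several signs depend.

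The members and gene lists were chosen with earlier results of these data known, so lists are described by counts and medians without a set test. In pathway lists the named genes are the 3 largest called changes in each direction and in marker lists the 2 largest, with all 10 members; other genes named were chosen after their values were seen. The nearest genes were found for the called members with the largest rise and the largest fall. Alternatives varied the scaling, filter, pseudocount, choice of probe set, variance model, array weights, a replicate block, arrays left out and the threshold; scaling on the Bacillus subtilis controls was added after the data were seen. Plots used Python 3.11.15 and matplotlib 3.10.9.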

Additional observations from a re-analysis of the deposited data

Results flagged for a closer look

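Signal in probe sets outside the comparison differed between the genotypes. The mean log2(deposited intensity + 1) of the 27 Bacillus subtilis control probe sets was 5.94 and 6.40 in Med1+/+ cells against 6.73 and 7.35 in Med1-/-, higher by 0.87, while that of the 18 hybridisation control probe sets differed by 0.015. Whether and at which step these control transcripts were added was not given in the sources used here.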

How the results depend on the processing

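Ccn3, Ccn5 and Ankrd1 kept their direction and call under every alternative listed in the methods that tested them, while the calls of Ccn1, Ccn2, Ccn4, Tead1 and Tead2 and the sign of Yap1 depended on the scaling. In the values as deposited, 265 features were called higher and 3844 lower (6.45% higher, against 51.9% of calls after quantile normalization), 1 of the 10 members was called higher, and Ccn1 (0.66), Tead1 (0.36) and Tead2 (0.44) lost their calls. Ccn4 (-0.37), Yap1 (-0.65), Vgll4 (-0.46), Cd14 (-0.45) and the Ccn4 probe sets 1448593_at (-0.53) and 1448594_at (-0.37) turned sign, as did 1448363_at of Yap1 (-0.65). On the hybridisation controls, 1177 features were higher and 5342 lower (18.1% higher), and 2 members were called higher and 5 lower. Tead1 (0.34) lost its call, as did Ccn1 on 1416039_x_at (0.64). The other Ccn1 probe set, 1438133_a_at, kept its call (0.60; adjusted p = 0.00156, limma over all probe sets). Ccn4 (-0.39), Yap1 (-0.66), Vgll4 (-0.47), Cd14 (-0.47) and 1448593_at of Ccn4 (-0.55) turned sign. Yap1, Vgll4, Cd14 and 1448593_at were called lower there. On the Bacillus subtilis controls, 137 were higher and 7801 lower (1.73% higher), 0 members were called higher by limma (Ccn2, at 0.10 with adjusted p = 0.531, lost its call and was the one member above 0) and 7 lower, and Tead1 (-0.49), Tead2 (-0.43), Ccn1 (-0.21, and -0.26 on 1438133_a_at), Ccn4 (-1.24, and -1.40 on 1448593_at), Yap1 (-1.52, and -0.28 on 1416487_a_at), Wwtr1 on 1417817_a_at (-0.19) and 1437155_a_at (-0.66), Tead3 (-0.067) and Vgll4 (-1.32) turned sign. With array medians set equal, 59.8% of calls were higher and Yap1 was called (0.42). With the mean of a gene's probe sets, Wwtr1 reversed (0.58) and Yap1 was called (0.77). Ccn4 lost its call without the intensity trend (0.38; adjusted p = 0.0642, limma), at a threshold of 0.01 and at a 2-fold minimum (0.38), where Wwtr1 (-0.87) was also lost and 1883 features were higher and 1715 lower.

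Leaving out 1 array at a time gave 3079 to 3342 features higher and 2711 to 3172 lower, with log2 changes of 0.83 to 1.49 for Ccn1, 1.36 to 1.496 for Ccn2, -3.02 to -2.89 for Ccn3, 0.27 to 0.51 for Ccn4, -1.75 to -1.41 for Ccn5, -2.09 to -1.83 for Ankrd1, -0.0059 to 0.099 for Yap1, -0.94 to -0.77 for Wwtr1, 1.26 to 1.47 for Tead1 and 1.24 to 1.46 for Tead2. The lone array of a genotype is then assumed to vary like the other 2. The replicate numbers are shared between genotypes, but nothing in the labels says that they pair the samples. Same-numbered arrays deviated together (r = 0.27 across features), and with a replicate block 3828 features were called higher and 3500 lower, with 5 members higher and 4 lower, and 1448593_at of Ccn4 passed (0.25; adjusted p = 0.0122, limma). The block leaves fewer residual degrees of freedom, so its p-values lean on variance pooled over features. For Ccn2 the adjusted p went from 4.84e-05 to 8.23e-18 (limma), which is not added evidence. The filter, pseudocount and array weights changed no call of a member that was still tested, but Tead1 and Ccn5 were too dim to be tested with the filter at the 60th percentile. Dim signals limit Ccn5, Tead1 and Tead4. The cause of these changes was not tested.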
